A study of Mus musculus with 6 samples.

Results

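The nuclei described here were GABAergic nuclei of the mouse hypothalamus that carried *Ppp1r17* RNA. They were chosen by measured values, the unique molecular identifiers (UMIs) of 7 genes in each nucleus. A nucleus was taken if it held at least 1000 UMIs, at least 2 of *Ppp1r17* and at least 2 of *Gad1*, *Gad2* and *Slc32a1* together. It was dropped if it held any *Slc17a6* UMI, or 2 or more of *Lef1* or of *Agrp*. Of 39665 nuclei with at least 1000 UMIs, 97 met this rule, and they are called *Ppp1r17* nuclei below. The levels of these 7 genes are therefore part of the choice and not a result. *Lepr*, *Glp1r* and *Grp* were not used in it, and neither was any other gene.

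PPP1R17, also known as G-substrate, is a small protein that the cGMP-dependent protein kinase phosphorylates, and in that form it inhibits the protein phosphatases PP1 and PP2A. It is best known from cerebellar Purkinje cells, and it also marks some hypothalamic neurons. GRP, gastrin-releasing peptide, is a bombesin-like neuropeptide, while LEPR and GLP1R are the receptors through which leptin and GLP-1 reach neurons that control food intake. GAD1 and GAD2 make GABA, and the vesicular transporters encoded by *Slc32a1* and *Slc17a6* load GABA and glutamate into synaptic vesicles.

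The study performed nucSeq on the hypothalamus of wild-type male C57Bl/6 mice aged 6–8 weeks, which were either fed chow ad libitum (12 mice) or fasted for 16 h (6 mice). Tissue of 6 mice was pooled before Dounce homogenization and DRAQ5 sorting, which gave 2 ad-libitum-fed pools from separate days and 1 fasted pool, and each pool was run as 2 libraries. The 2 fasted libraries are thus tubes of a single pool, and the fed libraries that shared a pool are not named in the sources used here. Pool, day of preparation and fasting cannot be told apart. In all, 39556605, 31757655, 59083864 and 59940795 UMIs were counted in ad-libitum-fed libraries 1 to 4, and 36177621 and 35567902 in the fasted pair.

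Ad-libitum-fed libraries 3 and 4 stood apart from the other libraries. GABAergic nuclei (at least 2 UMIs of the 3 GABA genes and none of *Slc17a6*) made up 35.5% and 34.2% of the passing nuclei in these libraries, compared with 13.5% and 14.5% in fed libraries 1 and 2 and 18.1% and 18.2% in the fasted libraries. The median passing nucleus held 8743 and 8831.5 UMIs in fed libraries 3 and 4, and between 4431 and 5982 in the others. Within the *Ppp1r17* nuclei, ribosomal protein genes took 2.16% and 2.24% of UMIs in fed libraries 3 and 4, 0.369% and 0.408% in fed libraries 1 and 2, and 0.266% and 0.268% in the fasted libraries. Results that rest on all libraries are therefore given with and without fed libraries 3 and 4 where the difference matters. In single libraries the numbers are small, so a level there rests on a handful of nuclei.

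The nuclei were unevenly spread over the libraries. The fed libraries held 8, 4, 34 and 25 *Ppp1r17* nuclei and the fasted libraries 15 and 11, with 46341, 13978, 294452 and 205666 UMIs in the fed and 90751 and 67278 in the fasted libraries. Fed libraries 3 and 4 thus supplied 59 of the 97 nuclei. *Ppp1r17* itself, summed over all passing nuclei, lay between 12.6 and 13 CPM (UMIs of a gene scaled by the summed UMIs of the nuclei) in the 4 fed libraries and at 15.9 and 13.3 in the fasted ones. The 3 GABA genes together lay at 129.8, 130.4, 312 and 294 CPM in the fed libraries and at 144 and 141 in the fasted ones, so the libraries with most *Ppp1r17* nuclei were those with the highest GABA gene level, while their *Ppp1r17* level was that of the other fed libraries.

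**Figure D1:**
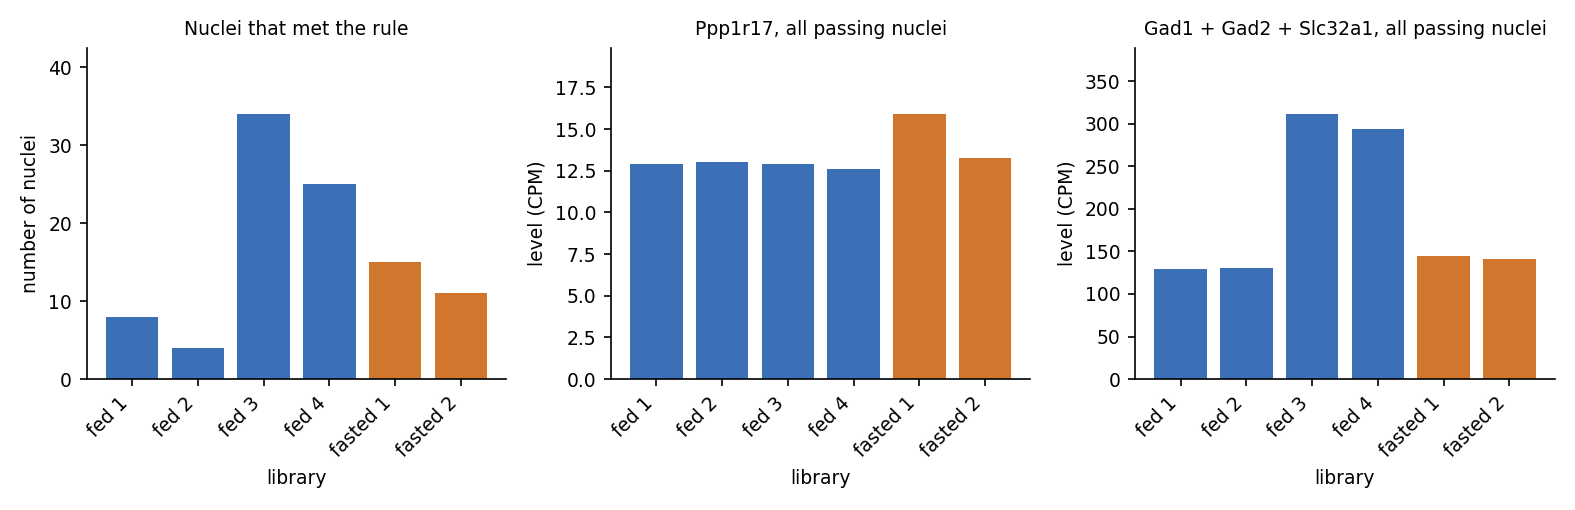
*Ppp1r17* nuclei and the genes of the rule in each library. The bars give, from left to right, the number of *Ppp1r17* nuclei, the *Ppp1r17* level and the summed level of *Gad1*, *Gad2* and *Slc32a1* (both in CPM over all passing nuclei of the library). The number of nuclei is highest in fed libraries 3 and 4 (34 and 25), where the GABA genes are at 312 and 294 CPM, while *Ppp1r17* stays between 12.6 and 15.9 CPM in all 6 libraries.

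Most nuclei with *Ppp1r17* did not meet the GABAergic part of the rule. At least 2 *Ppp1r17* UMIs were found in 520 nuclei, of which 279 had no UMI of the GABA genes, 104 had 1 and 137 had 2 or more. Of these 137, 32 had a *Slc17a6* UMI, 6 had 2 or more UMIs of *Lef1* and 2 had 2 or more of *Agrp*. A *Slc17a6* UMI was found in 202 of the 520 nuclei. Without the GABAergic requirement, and with the rest of the rule kept, 299 nuclei were found (35, 37, 60 and 52 in the fed and 65 and 50 in the fasted libraries).

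*Ppp1r17* nuclei made up 0.0948%, 0.0602%, 0.535% and 0.392% of the passing nuclei of the fed libraries (0.270 ± 0.231%, SD, n = 4) and 0.251% and 0.187% in the fasted libraries (0.219 ± 0.0451%, SD, n = 2). The fasted values lay inside the fed range (two-sided exact permutation test over libraries, p = 0.8). The sign of the difference turned on the fed libraries: the fasted minus fed share was -0.0512 points over all libraries, 0.142 points without fed libraries 3 and 4, with both fasted values above the fed ones, and -0.244 points without fed libraries 1 and 2, with both below. Of the GABAergic nuclei they made up 0.704%, 0.415%, 1.51% and 1.15% in the fed and 1.39% and 1.03% in the fasted libraries. Here the means were 0.943 ± 0.481% and 1.21 ± 0.253%, and the groups again overlapped (exact permutation test, p = 0.667). The difference of 0.265 points became 0.648 without fed libraries 3 and 4 and -0.118 without fed libraries 1 and 2. With 4 libraries against 2 this test cannot give a p below 0.133, and no share of nuclei could pass 0.05. The SDs and this test are over libraries, that is over tubes of 2 fed pools and 1 fasted pool, so they describe the spread between tubes and do not carry over to pools or mice.

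The label of these nuclei, *Ppp1r17* neurons with *Grp* and *Lepr*, was met by a minority of them. A *Lepr* UMI was found in 18 of 97 *Ppp1r17* nuclei (18.6%, 95% exact binomial interval 11.4 to 27.7%). A *Grp* UMI was found in 10 (10.3%, 5.06 to 18.1%), and a *Glp1r* UMI in 3 (3.09%, 0.642 to 8.77%). Most nuclei, 71 of 97, had none of the 3. *Lepr* alone was found in 13, *Grp* alone in 8, *Lepr* with *Grp* in 2 and *Lepr* with *Glp1r* in 3, and no nucleus had *Glp1r* without *Lepr*. They are therefore called by their rule, and no cell type name is given to them.

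The 3 genes were compared with 6996 GABAergic nuclei that met the same rule but held no *Ppp1r17* UMI, called other GABAergic nuclei below and comparators in the plots. Over all libraries their median depth was 7071.5 UMIs, against 6935 in the *Ppp1r17* nuclei, but within each of the 6 libraries the *Ppp1r17* nuclei were the shallower (for example 3479.5 against 4890 UMIs in fed library 2 and 8110 against 8348 in fed library 3). In them *Lepr* was found in 10.7%, *Grp* in 2.99% and *Glp1r* in 2.50%. With each nucleus thinned to 2000 UMIs, the shares were 8.25%, 6.19% and 1.03% in *Ppp1r17* nuclei and 4.13%, 1.26% and 0.631% in other GABAergic nuclei, and 26 of the latter were too shallow and left out. Free RNA was gauged in 1337 oligodendrocyte-like nuclei, where *Lepr* was found in 1.05%, *Grp* in 0.224% and *Glp1r* in none, at a median depth of 2484 UMIs, which is below that of the *Ppp1r17* nuclei. For reference, *Lepr* was found in 68.0% of 172 *Agrp* nuclei and in 8.17% of 514 *Lef1* nuclei, while *Grp* was found in 4.07% and 1.36% of them. Intervals and floors given here cover counting error only.

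Tested on summed counts, none of the 3 genes passed the threshold. *Lepr* (ENSMUSG00000057722, plus strand of chromosome 4 of GRCm38, 101717404 to 101815352) stood at 21.6, 215, 34 and 34 CPM in the fed and 44.1 and 149 CPM in the fasted *Ppp1r17* nuclei. In other GABAergic nuclei it lay between 20.1 and 34.9 CPM, and each library had more *Lepr* in its *Ppp1r17* nuclei. The log2 fold change (log2FC) was 0.96 (standard error 0.31, adjusted p = 0.151, edgeR quasi-likelihood test on pool sums).

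*Grp* (ENSMUSG00000024517) stood at 64.7, 0, 50.9 and 48.6 CPM in the fed libraries and at 0 in both fasted libraries. In other GABAergic nuclei it was at 2.66, 2.10, 22.4 and 15 CPM in the fed and 0.831 and 0.527 in the fasted libraries, so both kinds of nuclei had their lowest *Grp* in the fasted libraries and, among *Ppp1r17* nuclei, in fed library 2. The log2FC between the kinds of nuclei was 1.52 (standard error 0.43, edgeR adjusted p = 0.0546). *Glp1r* (ENSMUSG00000024027, plus strand of chromosome 17, 30901817 to 30940791) rested on 4 UMIs in 3 nuclei, with a log2FC of 0.42 (standard error 0.92, edgeR adjusted p = 1), which leaves any difference undetectable at this depth.

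In the fasted libraries *Lepr* was found in 1 of 15 and 4 of 11 *Ppp1r17* nuclei (6.67% and 36.4%), and in the fed libraries in 1 of 8, 1 of 4, 7 of 34 and 4 of 25 (12.5%, 25%, 20.6% and 16%). The fasted libraries fell on either side of the fed ones (difference of means 2.99 percentage points, exact permutation test, p = 0.8). *Grp* was found in 0 of 26 fasted nuclei (exact interval 0 to 13.2%) and in 1, 0, 5 and 4 nuclei of fed libraries 1 to 4, a difference of -10.8 points (exact permutation test, p = 0.4). The exact intervals of a count of 0 reach 21.8% in fasted library 1 and 28.5% in fasted library 2, so absence of *Grp* cannot be read from it. *Glp1r* was at 0 in both fasted libraries and in fed libraries 2 and 4 (difference -4.60 points, p = 0.8 in the exact permutation test). In the 299 nuclei without the GABAergic requirement, *Grp* was found in 28 of 184 fed (15.2%; 2, 1, 13 and 12 in libraries 1 to 4) and in 0 of 115 fasted nuclei. The groups did not overlap there, at p = 0.133 in the exact permutation test, the smallest it can give.

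**Figure D2:**
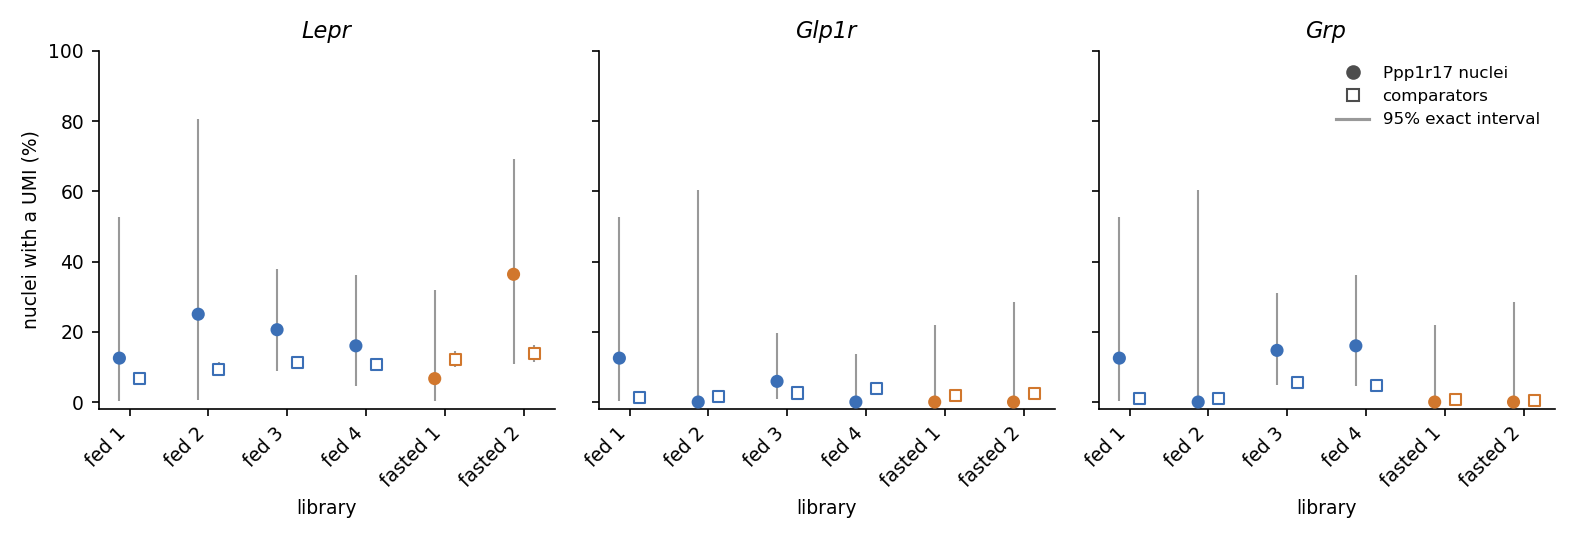
Share of nuclei with a UMI of *Lepr*, *Glp1r* and *Grp* in each library (percent, with 95% exact binomial intervals). Circles are *Ppp1r17* nuclei and squares other GABAergic nuclei. *Grp* is at 0 in both fasted libraries in *Ppp1r17* nuclei, with intervals that reach 21.8% and 28.5%, and *Lepr* in fasted library 1 (6.67%) and 2 (36.4%) spans all fed values.

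The choice of 2 *Ppp1r17* UMIs decided who was in. Of the 97 nuclei, 72 had exactly 2 UMIs, 15 had 3 and 10 had 4 or more. *Lepr* was found in 19.4% of those with 2 and 26.7% of those with 3, and *Grp* in 9.72% and 20%, while none of the 10 nuclei with 4 or more had *Lepr*, *Glp1r* or *Grp*. Just outside the threshold, 404 nuclei with a single *Ppp1r17* UMI had *Lepr* in 9.90%, *Grp* in 4.70% and *Glp1r* in 4.70%, at a median depth of 7478.5 UMIs. The *Ppp1r17* locus (ENSMUSG00000002930) lies on the plus strand of chromosome 6, from 56017497 to 56032689. Of the 97 nuclei, 3 were in the top 5% of doublet scores, and they were kept. In all 151 barcode sequences occurred in more than 1 library, and 1 *Ppp1r17* nucleus had such a barcode, though no 2 *Ppp1r17* nuclei shared one.

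How alike the *Ppp1r17* nuclei were was measured by the 15 nearest neighbours of each nucleus, found without the genes of the rule and without *Lepr*, *Glp1r* and *Grp*. For the median *Ppp1r17* nucleus 20% of the neighbours had a *Ppp1r17* UMI, against 6.67% for other GABAergic nuclei. The *Ppp1r17* nuclei fell over the whole scale, from 9 nuclei with no such neighbour to nuclei whose neighbours all had one. At least 50% of neighbours carried *Ppp1r17* in 24 of the 97 nuclei (1, 0, 9 and 5 in the fed and 5 and 4 in the fasted libraries), against 13 of the 6996 other GABAergic nuclei (0.186%). This line was drawn after the values were seen, with 1 nucleus at 40%, 5 at 46.7%, none at 53.3% and 3 at 60%, and no test was made of it.

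The 24 nuclei in *Ppp1r17*-rich neighbourhoods and the other 73 differed in several genes, given here as a description. *Cdh20*, a cadherin, stood at 281 CPM in the 24 and 11.9 CPM in the 73, *C2cd2* at 320.2 and 28.8, and *Pdzd2* at 328 and 50.8. The long noncoding RNA *Sox2ot* stood at 1164 and 242 CPM, *Sfta3-ps* at 414 and 91.5, *Prox1os* at 125 and 13.5 and *Dlx6os1* at 359 and 71.1. In the opposite direction, the peptide genes *Pomc* (7.81 against 174 CPM), *Sst* (23.4 against 261) and *Cartpt* (54.7 against 452) were lower in the 24. *Lepr* was found in 2 of the 24 and 16 of the 73, *Grp* in 3 and 7, and *Glp1r* in 1 and 2.

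*Ppp1r17*-rich neighbourhoods mostly held nuclei outside the rule. Among all passing nuclei 481 were in such a neighbourhood (99, 64, 90 and 60 in the fed and 76 and 92 in the fasted libraries). Of these, 67.4% had *Ppp1r17*, which chose the neighbourhood, 94.0% had *Rorb*, 99.4% *Prkg1* and 42.0% *Prox1*. Only 10.6% had 2 or more UMIs of the GABA genes, and 33.5% had *Slc17a6*. *Grp* was found in 15.6% of the 481 and *Pdyn*, the prodynorphin gene, in 23.7%.

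**Figure D3:**
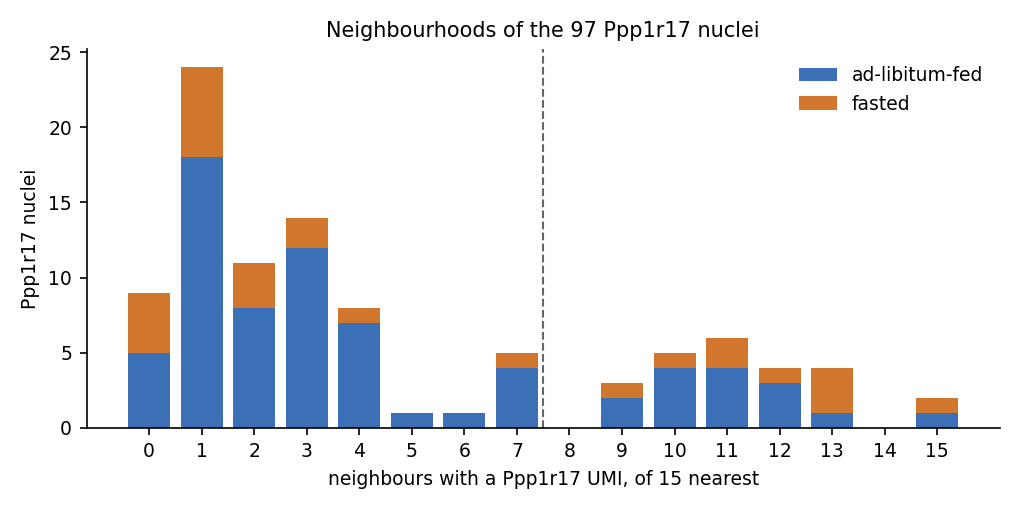
The 97 *Ppp1r17* nuclei by the number of their 15 nearest neighbours that held a *Ppp1r17* UMI. Bars count nuclei, stacked by ad-libitum-fed and fasted libraries, and the dashed line marks 50% of the neighbours. The 24 nuclei to the right of the line are spread up to 15 of 15 neighbours, and 9 nuclei have no such neighbour.

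Clustered among themselves, with library means subtracted, the *Ppp1r17* nuclei formed 6 groups of 10 to 23 nuclei. The groups are described by their leading genes and carry no cell type name. Cluster 6 (22 nuclei) was led by *Cdh20* (313 CPM inside, 13.2 in the other *Ppp1r17* nuclei), *C2cd2*, *Pdzd2*, *Sfta3-ps* and *Runx1t1* and held 19 of the 24 nuclei in *Ppp1r17*-rich neighbourhoods. Its mean *Ppp1r17* count was 3.77 UMIs, and it had *Lepr* in 1 and *Grp* in 1 nucleus. It held 0, 1, 6 and 5 nuclei of fed libraries 1 to 4 and 5 of each fasted library.

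*Lepr* gathered in cluster 1. This cluster (12 nuclei) was led by the transcription factor gene *Ebf1* (440.5 CPM inside, 4.68 outside), *Gpr179*, *Pde11a*, *Cartpt* and *Parm1*. *Cartpt* was found in 41.7% of its nuclei and 36.5% of the others, and *Ebf1* in 58.3% and 3.53%. Cluster 1 held 10 of the 18 nuclei with *Lepr* and all 3 with *Glp1r*, though neither gene was used for clustering, and none with *Grp*. Every library contributed to it, with 2, 1, 3 and 2 nuclei in the fed and 1 and 3 in the fasted libraries. At a coarser setting, with 4 clusters, 9 *Lepr* nuclei lay in a cluster of 48, and at a finer one, with 8 clusters, 10 lay in a cluster of 12.

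*Grp* was found most often in cluster 2, in 5 of its 10 nuclei. That cluster was led by the peptide genes *Ghrh* (1661 CPM inside, 16.0 outside), *Pomc*, *Cartpt* and *Sst* and by *Eif2b3*, and came from fed libraries 1, 3 and 4 only, with 3, 5 and 2 nuclei. Cluster 3 (17 nuclei) was led by *Avp* (1985 CPM inside, 112 outside), *Nnat*, *Cdc14a*, *Rgs16* and *Zic1*, with *Lepr* in none and *Grp* in 1. The share of nuclei with *Avp* (52.9% inside, 45% outside) and *Nnat* (88.2% and 81.25%) differed little. That of *Cdc14a* (41.2% and 3.75%), *Rgs16* (41.2% and 7.5%) and *Zic1* (52.9% and 3.75%) differed more. Cluster 4 (13 nuclei) was led by *Gna11*, *Calb2*, *Stx8*, *Dusp28* and *Cep192*. Cluster 5 (23 nuclei) was led by the metabotropic glutamate receptor gene *Grm8* (518 CPM inside, 77.1 outside), *Cntn5*, *Pvt1*, *Thrb* and *Kif26b*. *Ghrh* was found in 30% of cluster 2, so its level there rested on few nuclei.

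**Figure D4:**
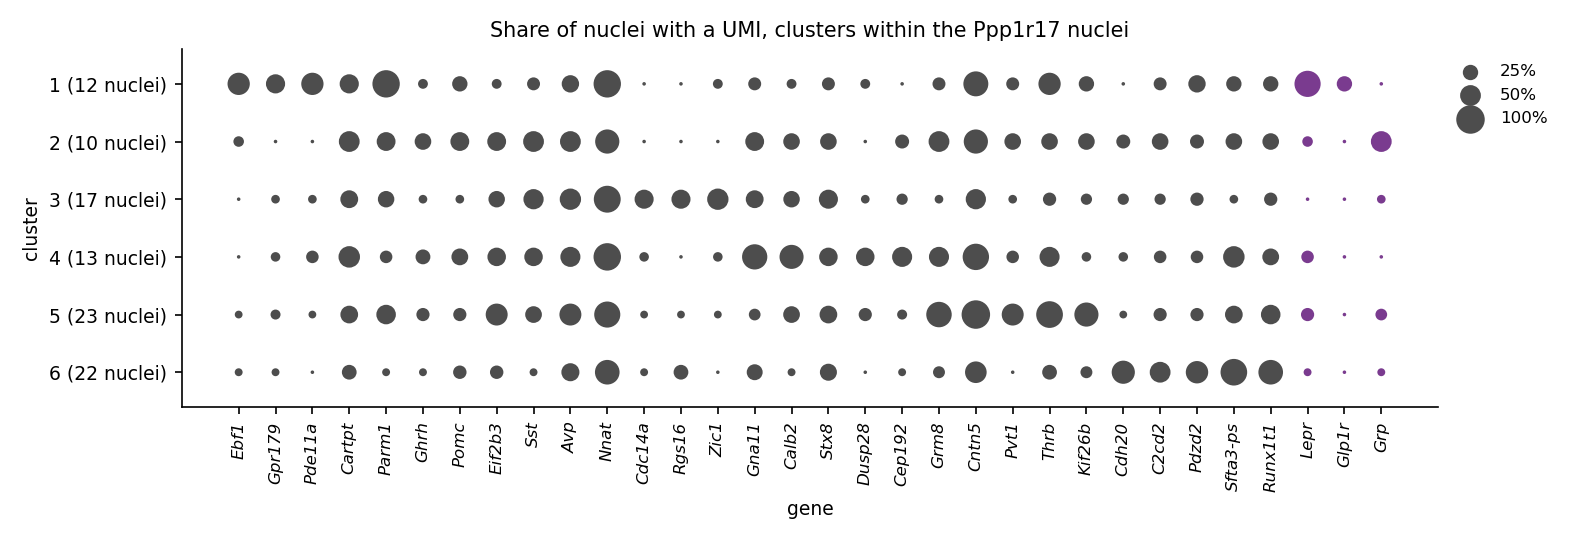
Share of nuclei with a UMI (percent, dot size) in the 6 clusters of *Ppp1r17* nuclei, for the leading genes of each cluster and for *Lepr*, *Glp1r* and *Grp*. Colour only separates *Lepr*, *Glp1r* and *Grp* from the leading genes. *Lepr* and *Glp1r* are most frequent in cluster 1 (10 and 3 of 12 nuclei) and *Grp* in cluster 2 (5 of 10).

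Compared with other GABAergic nuclei of the same pools, the *Ppp1r17* nuclei had higher levels of *Sfta3-ps*, *Rorb* and the cGMP kinase gene *Prkg1*, among others, and lower levels of *Dpp10*. Of 16942 genes tested, 43 were higher (0.254%) and 88 lower (0.519%) at an adjusted p under 0.05, and 74 of these 131 had the same direction in all 6 libraries (13 higher, 61 lower). The nuclei were split by their *Ppp1r17* count, so *Ppp1r17* and the other genes of the rule were not tested. Of the higher genes, 8 had UMIs in under 10% of the *Ppp1r17* nuclei, and of the lower genes 11 had fewer than 10 UMIs there. A gene was tested with at least 10 UMIs in 3 of the 12 library sums of both kinds of nuclei, and only 2106 of those tested reached this in the *Ppp1r17* nuclei alone, 19 of the higher and 45 of the lower genes among them. The rest of the called genes passed only with the counts of the other GABAergic nuclei, a route that favours a fall. In 4 of the higher and 17 of the lower genes no library of *Ppp1r17* nuclei had 10 UMIs. Any lower gene named below that reached 10 UMIs in fewer than 3 libraries of *Ppp1r17* nuclei is given as a description.

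*Sfta3-ps*, annotated as a processed transcript (ENSMUSG00000112343, minus strand of chromosome 12, 56488321 to 56529427), rose most among the named genes. In *Ppp1r17* nuclei it stood at 129, 286, 64.5 and 87.5 CPM in the fed and 452 and 282 CPM in the fasted libraries. In other GABAergic nuclei it stood at 38.0, 44.0, 17.7 and 18 CPM and at 52.9 and 49.0 CPM. Every value in *Ppp1r17* nuclei lay above every value in the others, and both kinds of nuclei were lowest in fed libraries 3 and 4. The log2FC was 2.21 (standard error 0.20, edgeR adjusted p = 4.12e-23). It was also called with each library left out in turn, without fed libraries 3 and 4 and by DESeq2.

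*Rorb*, which encodes a retinoid-related orphan receptor of the clock gene family (ENSMUSG00000036192, minus strand of chromosome 19, 18930605 to 19111196), stood at 1122, 858, 353 and 1041 CPM in the fed and 749 and 654 CPM in the fasted *Ppp1r17* nuclei. In other GABAergic nuclei it was at 379, 362, 197 and 182 CPM and at 295 in both fasted libraries, below the *Ppp1r17* nuclei in every library. The log2FC was 1.36 (standard error 0.15, edgeR adjusted p = 2.91e-16). The call was lost without fed library 4 (0.88, adjusted p = 0.124) and without fed libraries 3 and 4 (0.98, adjusted p = 0.521).

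*Prkg1*, which encodes the cGMP-dependent kinase that phosphorylates G-substrate (ENSMUSG00000052920, minus strand of chromosome 19, 30564489 to 31765033), stood at 1575, 1502, 856 and 1245 CPM in the fed and 2159.8 and 2928 CPM in the fasted *Ppp1r17* nuclei. The other GABAergic nuclei had 1018, 1049.6, 649.5 and 639 CPM and 923 and 939.7 CPM. It was higher in *Ppp1r17* nuclei in all 6 libraries (log2FC 0.74, standard error 0.15, edgeR adjusted p = 0.000221). The call was lost without fed library 1, 3 or 4 (adjusted p of 0.892, 0.972 and 1) and without the top 5% of doublet scores (0.137). Without fed libraries 3 and 4 together it was lost as well.

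Among the other genes that rose were 2 antisense transcripts of homeobox genes. *Prox1os* (chromosome 1, 190170296 to 190217276, antisense to *Prox1*) averaged 45.4 ± 34.5 CPM in *Ppp1r17* nuclei and 10.7 ± 1.54 in other GABAergic nuclei (SD, n = 6, log2FC 1.58, edgeR adjusted p = 0.0343). *Dlx6os1* (chromosome 6, 6820189 to 6871592, antisense to *Dlx6*) averaged 129 ± 35.3 and 61.5 ± 11.1 CPM (log2FC 1.02, edgeR adjusted p = 0.000404). For both, the lowest library of the *Ppp1r17* nuclei lay above the highest of the others. The *Prox1os* call held in only 1 of the 6 fits that left out a library, that without fasted library 1 (edgeR adjusted p up to 0.659 in the others), and *Dlx6os1* lost its call without fed library 3 (0.427). Without fed libraries 3 and 4 neither was called (0.656 and 1). The sources used here do not give whether strand was used in counting, and without it reads of a gene and of its antisense partner cannot be told apart.

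The other named rises had log2FC from 0.55 to 1.19. *Plagl1*, an imprinted zinc finger gene, had a log2FC of 1.19, *Hlf*, a PAR bZIP factor, 1.11, *Tox3* 0.91, *Mef2c* 0.76 and *Zbtb20* 0.55, with edgeR adjusted p from 0.0013 to 0.0282. *Hlf* was the most even of them, at 64.7, 71.5, 50.9 and 63.2 CPM in the fed and 66.1 and 44.6 CPM in the fasted *Ppp1r17* nuclei, against 21.9 to 37.7 CPM in other GABAergic nuclei. It had 41 UMIs in the *Ppp1r17* nuclei, with 3 in fed library 1, 1 in fed library 2 and 3 in fasted library 2, so this evenness rested on few counts. *Syndig1*, a gene of synapse formation, and *Rps6ka5*, which encodes the kinase MSK1, rose by 0.86 and 0.77 (adjusted p of 0.00378 and 0.0121). Each of these genes was higher in *Ppp1r17* nuclei in all 6 libraries, and each lost its call when at least 1 library was left out. The call held in 5 of the 6 such fits for *Plagl1*, 3 for *Tox3* and *Syndig1* and 2 for *Hlf* and *Mef2c*. For *Rps6ka5* it held in 1 and for *Zbtb20* in 0. Without fed libraries 3 and 4 only *Plagl1* kept its call (edgeR adjusted p = 0.00693).

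Of the genes that fell, *Dpp10* is given in full. *Dpp10*, an auxiliary subunit of Kv4 potassium channels (ENSMUSG00000036815, minus strand of chromosome 1, 123321471 to 124045559), stood at 345, 572, 615 and 709.9 CPM in the fed and 529 and 565 CPM in the fasted *Ppp1r17* nuclei. Other GABAergic nuclei had between 1092 and 1685 CPM, so the groups did not overlap (log2FC -1.32, standard error 0.16, edgeR adjusted p = 6.78e-13), and the call held with each library left out. *Epha3*, an ephrin receptor gene, averaged 14.3 ± 8.47 CPM against 83.1 ± 24.5 (SD, n = 6). It had only 13 UMIs in the *Ppp1r17* nuclei, with no library at 10, and is given as a description.

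The other 6 named falls rested on low counts. *Coro6*, *Bcl11b*, *Rasal1* and *Sh2d3c* were found in 5.15% of *Ppp1r17* nuclei each and in 13.7% to 18.5% of the others, with log2FC from -2.31 to -1.87. They had 5 or 6 UMIs each in the *Ppp1r17* nuclei, and *Glra1*, a glycine receptor subunit gene, had 9 (log2FC -1.75). These 5 genes were tested through the other GABAergic nuclei and are given as a description. *Cdh11*, a cadherin gene with 20 UMIs, had a log2FC of -1.38 (edgeR adjusted p = 0.00234). This call held without fed library 2 or 3 and was lost without any of the other 4 (edgeR adjusted p up to 0.192). With so few UMIs, *Cdh11* too was tested through the other GABAergic nuclei, and its fall is given as a description. In *Ppp1r17* nuclei each of these genes was at 0 in at least 1 library.

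**Figure D5:**
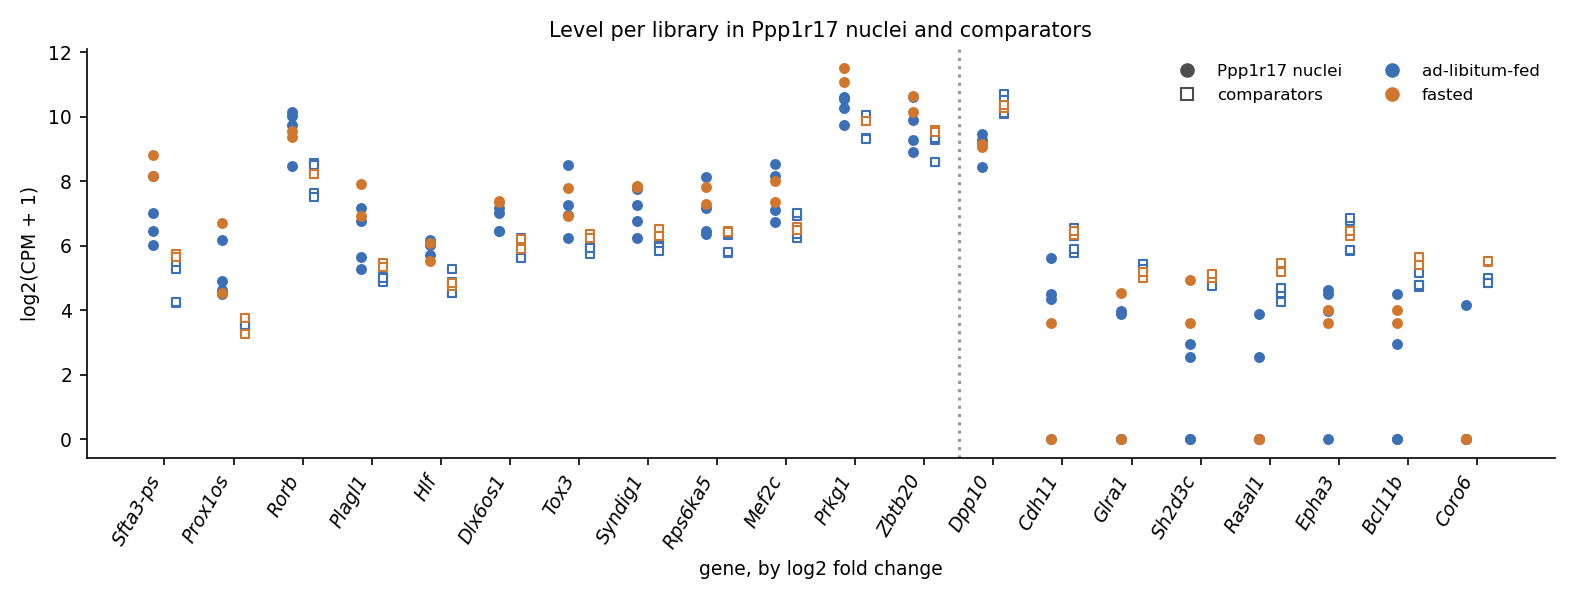
Level of the 12 named genes that rose and the 8 that fell, in each library, as log2 of CPM + 1. Filled circles are *Ppp1r17* nuclei and open squares other GABAergic nuclei, colours separate ad-libitum-fed from fasted libraries, and the dotted line separates rises from falls. *Sfta3-ps*, *Prox1os*, *Dlx6os1* and *Hlf* do not overlap between the kinds of nuclei, and of the falls only *Sh2d3c* does.

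The calls depended on fed libraries 3 and 4, which held most of the nuclei. Without these, 17 genes were called, 15 of them among the 131, and without fed libraries 1 and 2, 138 were called, 114 of them shared. With single libraries left out, between 32 and 126 genes were called, fewest without fed library 4 (32), fed library 3 (34) and fed library 1 (46). The 7 genes called every time were *Sfta3-ps* and *Gm12216*, which rose, and *Cdh18*, *Col25a1*, *Dpp10*, *Epha3* and *Epha6*, called lower. Of these, *Epha3* was tested through the other GABAergic nuclei and its fall remains a description. *Gm12216*, *Cdh18*, *Col25a1* and *Epha6* are named after their values were seen. DESeq2 called 6 genes (*Cdh18*, *Cntnap2*, *Dpp10*, *Epha6*, *Rorb* and *Sfta3-ps*).

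Most gene lists held few calls or none, beside the background of 0.254% higher and 0.519% lower. Of 19 clock genes, 3 rose (*Rorb*, *Hlf* and *Npas2*) and none fell, with a median log2FC of 0.27 against -0.09 over all genes. *Npas2*, a paralogue of *Clock*, had a log2FC of 1.13 (edgeR adjusted p = 0.00633), with 21.6, 215, 37.4 and 34 CPM in the fed and 220.4 and 104 CPM in the fasted *Ppp1r17* nuclei, and was not higher than in other GABAergic nuclei in fed library 1 (31.5 CPM). Its call was lost without fed library 3 (0.0701) or fasted library 1 (1), and without fed libraries 3 and 4 together (0.098). Of 14 suprachiasmatic markers, 3 rose (*Rorb*, *Cck* and *Avp*) and 2 were called lower (*Vip*, with no UMI in the *Ppp1r17* nuclei, and *Zfhx3*), with a median of 0.52. *Vip*, a defining peptide of that nucleus, was called lower, but its 871 UMIs sat in 118 of the 6996 other GABAergic nuclei (1.69%), and 0 of 97 *Ppp1r17* nuclei allows up to 3.73% (exact interval), so a difference in the share of nuclei was not detectable at this depth. The call was lost without fed library 3 or 4 (edgeR adjusted p of 0.763 and 0.102), without both (1) and by DESeq2 (1). Of 24 phosphatase, phosphatase inhibitor and cGMP kinase genes only *Prkg1* rose and none fell, with a median of -0.02.

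Of 35 neuropeptide genes tested, 4 were called higher and 4 lower (median 0.09). *Ghrh* stood at 0, 0, 482 and 102 CPM in the fed and 11.0 and 0 in the fasted *Ppp1r17* nuclei (log2FC 1.33, edgeR adjusted p = 9.01e-08), and *Cck* at 0, 0, 153 and 38.9 in the fed and 0 in both fasted libraries (log2FC 2.19, adjusted p = 1.6e-07). Both thus rested on fed libraries 3 and 4, and without these the sign turned for each (-1.27 and -6.95). *Avp*, the vasopressin gene, was found in 46.4% of *Ppp1r17* nuclei and 47.0% of the others, and its summed level was at 21.6, 358, 204 and 1050.2 CPM in the fed and 22.0 and 0 in the fasted libraries (log2FC 0.72, edgeR adjusted p = 0.0187). Without fed library 4 its log2FC was -0.46. *Tac2*, which encodes neurokinin B, had 12 UMIs in the *Ppp1r17* nuclei, with no library at 10, so that its log2FC of -1.92 is given as a description, and its call was lost without fed library 3 or 4 (edgeR adjusted p = 0.279 and 0.632). *Gal*, *Oxt* and *Hcrt* complete the 8 calls and are named after their values were seen. *Gal*, called higher, was above the other GABAergic nuclei in only 2 libraries and rested on fed library 3 (1386 against 415 CPM), *Oxt*, called lower, was lower in 3 libraries and *Hcrt*, called lower, in 5. *Tac2*, *Vip* and these 3 genes all lost the call without fed libraries 3 and 4 (adjusted p = 1, edgeR). *Oxt* and *Hcrt* reached 10 UMIs in fewer than 3 libraries of *Ppp1r17* nuclei, so both are given as a description.

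The receptor and signalling lists did not stand out. None of 25 genes of leptin receptor signalling (median 0.00), 40 metabolic and hormone receptors (-0.20) and 25 bombesin and neuropeptide receptors passed the test. Of 33 genes of GLP-1 receptor and cAMP signalling, only *Adcy2*, an adenylyl cyclase gene, did, and it fell (log2FC -0.71, edgeR adjusted p = 0.0064), a call that held without fed library 2 or fasted library 2 and was lost without any of the other 4. The *Adcy2* call was also lost without fed libraries 3 and 4 together (edgeR adjusted p = 0.519). None of 54 immediate early genes, 21 glucocorticoid targets, 22 FoxO and fasting genes, 24 genes of peptide processing and 15 GABA-A receptor subunits was called. Of 61 genes listed as factors of hypothalamic regions, 4 rose, of which *Ebf1*, *Rorb* and *St18* are transcription factor genes and *Dlx6os1* is an antisense transcript, and 3 were called lower, *Zfhx3* and, from 5 UMIs in the *Ppp1r17* nuclei, *Bcl11b* among them. *Ebf1*, the leading gene of cluster 1, stood at 0, 644, 13.6 and 4.86 CPM in the fed and 165 and 119 CPM in the fasted libraries (log2FC 1.53, edgeR adjusted p = 0.000641), and lost its call without fed library 2 (0.124) or fasted library 1 (0.705). *Unc13c*, 1 of 3 somatostatin neuron markers, had a log2FC of -1.23 (edgeR adjusted p = 0.000137), a call lost without fed library 1 (0.0541) or 3 (0.562). Only fed library 4 and fasted library 1 of the *Ppp1r17* nuclei held enough of its UMIs. *Unc13c* was thus tested through the other GABAergic nuclei, and its fall is given as a description.

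Markers of non-neuronal cells were low in both kinds of nuclei. Summed over all libraries, 8 of 8 oligodendrocyte markers were at 96.0 CPM in *Ppp1r17* nuclei and 122 CPM in the others, with *Mbp* the most abundant (47.3 CPM). Astrocyte markers were at 41.8 and 49.5 CPM, with *Aqp4* and *Gfap* at 0, and microglia markers at 25.1 and 25.7, with *C1qb*, *C1qc* and *Tmem119* at 0. Tanycyte and ependymal markers were at 25.1 and 28.3 CPM, endothelial and mural markers at 9.74 and 18.1, and oligodendrocyte precursor markers at 15.3 and 32.3. Among neurons, *Pomc* and *Cartpt* together were at 526 CPM against 368, AgRP neuron markers at 83.5 against 66.0, somatostatin neuron markers at 288 against 384 and dopaminergic markers at 94.7 against 93.4, with *Slc6a3* at 0. Of the genes of these lists only *Unc13c* was called, and it is given above as a description. The part of these genes in the other results was not tested.

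Fasting moved no gene of the *Ppp1r17* nuclei past the threshold. With 2 fed pools and 1 fasted pool, edgeR called 0 of 4595 genes (0%), with 140 at an unadjusted p under 0.05, and DESeq2 called 0 as well, with 65. The count depended on which fed libraries were summed as a pool: it was 0 with libraries 1 and 2 together, 1065 with 1 and 3 and 972 with 1 and 4, and a gene had to pass under all 3 poolings. As a description, both fasted libraries lay above all 4 fed libraries for 504 genes (11%) and below them for 318 (6.92%). In 30 genes (0.653%) the gap above the nearest fed library was wider than the whole fed range, and in 64 (1.39%) the gap below was. A gene with 10 UMIs in fed libraries 3 and 4 alone was counted through the fed side, a route that favours a fall. The genes below include such genes, *Romo1* among them. The counts of wide gaps turned on single libraries: they were 135 (2.94%) and 269 (5.86%) without fed library 1 and 166 (3.61%) and 211 (4.59%) without fed library 2. With fewer genes tested, they were 65 (3.07%) and 10 (0.473%) of 2116 without fed library 3, 57 (2.57%) and 10 (0.45%) of 2220 without fed library 4 and 139 (10.6%) and 84 (6.41%) of 1311 without both. They were 107 (2.37%) and 207 (4.59%) without fasted library 1 and 74 (1.62%) and 165 (3.62%) without fasted library 2. The median difference over all genes was 0.25 on the log2(CPM + 1) scale. Fed and fasted nuclei also differed in depth, in ribosomal share and in their spread over the clusters. Cluster 6 held 0, 1, 6 and 5 nuclei of the fed and 5 and 5 of the fasted libraries. Cluster 2 held 3, 0, 5 and 2 fed nuclei and no fasted one, and cluster 3 held 2, 0, 6 and 7 fed and 2 and 0 fasted nuclei. The part of these differences in the counts was not tested.

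Among the named genes with such a gap, *St18*, a zinc finger gene, lay furthest above the fed libraries. It stood at 43.2, 71.5, 61.1 and 34 CPM in the fed and 220.4 and 178 CPM in the fasted *Ppp1r17* nuclei, with 2, 1, 18 and 7 UMIs against 20 and 12. In other GABAergic nuclei it lay between 27.5 and 56.9 CPM in all 6 libraries. The difference in the *Ppp1r17* nuclei was 1.96 (edgeR standard error 0.64, unadjusted p = 0.0237) and did not pass the adjusted threshold. *St18* also stood at 234 CPM in the 24 nuclei of *Ppp1r17*-rich neighbourhoods and at 50.8 in the other 73. Those 24 were 15 of the 71 fed and 9 of the 26 fasted nuclei, and the part of this mix in the difference was not tested.

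*Fhod3*, a formin gene, stood at 64.7, 71.5, 64.5 and 58.3 CPM in the fed and 198 and 253 CPM in the fasted libraries. *Rora*, the nuclear receptor gene related to *Rorb*, stood at 324, 429, 414 and 491 CPM and at 959 and 1070.2 CPM. *Rapgef4*, which encodes the cAMP sensor EPAC2, stood at 108, 143, 163 and 107 CPM and at 309 and 327 CPM. For *Rora* the other GABAergic nuclei had 381 to 598 CPM in the fed and 611 and 627 CPM in the fasted libraries, a smaller spread in the same direction.

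*Grb10*, an adaptor of insulin signalling, varied little within the groups, with 173, 143, 166 and 165 CPM in the fed and 342 and 327 CPM in the fasted *Ppp1r17* nuclei. *Stk32a*, *Pde4dip*, *Ksr2*, *Ddhd2* and *Osbpl8* also lay above the fed libraries with a gap wider than the fed range, by 1.62, 1.20, 1.13, 1.11 and 1.08 on the log2(CPM + 1) scale. *Snhg11*, the most abundant neuronal RNA of its list, was at 7226 to 9637 CPM in the fed and 12903 and 13972 in the fasted libraries, and in other GABAergic nuclei at 8678 to 9106 and at 13885 and 13966 CPM.

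Below the fed libraries, 6 named genes had no UMI in either fasted library. They, and *Mrap2* and *Sv2a*, reached 10 UMIs only in fed libraries 3 and 4. All were thus counted through the fed side, a route that favours a fall, and are given as a description. *Romo1*, *Zmat2*, *Cdc37*, *Qdpr* and *Creg1* had between 21.6 and 215 CPM in the fed libraries. The 3 counts that a 0 allows correspond to 33.1 CPM in fasted library 1 and 44.6 CPM in fasted library 2, so several of the fed values lay within that floor. *Mrap2*, which encodes a melanocortin receptor accessory protein, stood at 64.7, 71.5, 71.3 and 82.7 CPM in the fed and 11.0 and 44.6 CPM in the fasted libraries, the last at 3 UMIs. In other GABAergic nuclei *Mrap2* was at 38.4, 37.0, 69.8 and 70.1 CPM in the fed and 40.7 and 37.7 CPM in the fasted libraries, where fed libraries 3 and 4 stood above the other 4. *Sv2a*, a synaptic vesicle gene, stood at 108, 143, 149 and 102 CPM and at 66.1 and 29.7 CPM. The other GABAergic nuclei had it at 92.1, 86.6, 179 and 179 CPM and at 81.6 and 77.2 CPM, and *Romo1* at 25.9, 20.3, 121 and 122 CPM and at 15.6 and 13.2 CPM, again highest in fed libraries 3 and 4. *C1ql3*, the last of the 6 and the single suprachiasmatic marker below the fed libraries, was at 21.6 to 87.5 CPM in them.

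By list, few genes held enough UMIs to be counted, and each count stands beside the background of 11% above and 6.92% below. Of 21 genes of GLP-1 receptor and cAMP signalling 4 lay above (*Rapgef4*, *Pde4b*, *Pde4d* and *Sik2*) and 1 below (*Prkar1a*), with a median difference of 0.74. Of 8 genes of leptin receptor signalling, 2 lay above (*Jak2* and *Grb10*) and none below (median 0.91). Of 14 neuropeptide genes none lay above and 2 below (*Cartpt* and *Nts*), with a median of -2.11. Among them *Cartpt*, *Gal*, *Sst* and *Grp* reached 10 UMIs only in fed libraries 3 and 4, a route that favours a fall. *Pmch* reached it in fed library 3 and fasted library 1. The median is therefore given as a description. *Cartpt* stood at 86.3, 71.5, 611 and 423 CPM in the fed and at 0 and 29.7 CPM in the fasted libraries, and in other GABAergic nuclei it was also lower in the fasted libraries, at 33.4 and 34.9 CPM against 84.6 to 433. *Cartpt* was a leading gene of cluster 1 (1270 CPM inside, 274 outside) and cluster 2 (1337 and 240). Cluster 2 held no fasted nucleus, and cluster 1 held 1 and 3. The part of the clusters in the *Cartpt* difference was not tested.

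Immediate early genes, which report recent neuronal activity, gave no common direction in these nuclei. Of 10 with enough UMIs, 1 lay above (*Sgk1*) and 1 below (*Jund*), with a median of 0.39. *Fos* had 0, 0, 0 and 9 UMIs in fed libraries 1 to 4 and 2 and 1 in the fasted libraries, too few to show a difference. *1700016P03Rik* was at 0, 143, 37.4 and 63.2 CPM in the fed and 132 and 149 CPM in the fasted libraries and overlapped with fed library 2, which held 2 of its UMIs.

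The fasting difference of the *Ppp1r17* nuclei was then set against that of other nuclei of the same pools. Against other GABAergic nuclei 1 of 16942 genes differed (0.0059%), against *Lef1* nuclei 1 of 10413 (0.0096%) and against *Agrp* nuclei 11 of 6472 (0.17%), with 353, 394 and 260 genes at an unadjusted p under 0.05. DESeq2 called 0 in each, with 21, 7 and 22 at an unadjusted p under 0.05. The gene called in all 3 was *Pmch*, which encodes the precursor of melanin-concentrating hormone, with differences of 4.20, 4.77 and 5.09. It had 2, 3, 26 and 8 UMIs in the fed and 28 and 0 in the fasted *Ppp1r17* nuclei. The 28 came from 2 nuclei of fasted library 1, and without that library it was not called in any of the 3.

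Against *Agrp* nuclei, *Sorcs1*, a sortilin-family receptor gene, differed by -2.53 (standard error 0.55, edgeR adjusted p = 0.00514). It stood at 259, 429, 397 and 297 CPM in the fed and 386 and 535 CPM in the fasted *Ppp1r17* nuclei. In *Agrp* nuclei it stood at 133, 96.0, 106 and 64.3 CPM and at 606 and 774 CPM. The fasted *Ppp1r17* nuclei overlapped with the fed ones, whereas both fasted libraries of the *Agrp* nuclei lay above all fed ones. The call was lost with any 1 of the 4 fed libraries left out, and fed libraries 1 and 2 held only 2 and 6 *Agrp* nuclei.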

How the data were processed

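Nuclei were profiled by 10x Genomics v3 droplet nucSeq in 6 libraries. The deposited matrices hold raw UMI counts per gene and nucleus, which the authors made with Cell Ranger 5.0.1 on mm10 with Ensembl gene models, and the submitters' processing notes name the same tool and build. The files held 39953 barcodes, of which 39665 with at least 1000 UMIs were kept.

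The members, the gene lists and the tests were chosen with earlier results of these data known. Counts were summed per library and given as CPM (of the total of the summed nuclei), and tested on pool sums with edgeR 4.0.16 (quasi-likelihood, TMM) in R 4.3.3. As the fed libraries of a pool are not named, each of the 3 possible poolings was fitted. A gene took the largest of its 3 p-values, and these were adjusted over all genes (Benjamini-Hochberg, threshold 0.05). The spread of the lone fasted pool was taken to equal that of the fed pools. Genes needed at least 10 UMIs in at least 3 of 12 library sums (kinds of nuclei, with pool as a block) or 2 of 6 (fasting). Kinds of nuclei were summed within each pool, and the interaction of kind with fasting was tested. Shares were compared by a two-sided exact permutation test over libraries, with exact binomial (Clopper-Pearson) intervals at 95%. The p-values of edgeR measure the spread between these pools, and those of the permutation tests the spread between libraries, which include tubes of the same pool.

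*Agrp* nuclei had at least 5 *Agrp* and 2 *Npy* UMIs, *Lef1* nuclei at least 2 *Lef1* UMIs, with the GABAergic part of the rule. Oligodendrocyte-like nuclei had at least 10 summed UMIs of oligodendrocyte markers. Neighbours were found with scanpy 1.11.5 in 30 principal components of 2000 variable genes, and clusters with Leiden at resolution 1, in 10 components of 1000 genes. Doublets were scored per library and kept.

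Named genes were those of the rule and the label, the 12 rises and 8 falls with the largest log2FC among called genes with 1 direction in all 6 libraries and UMIs in at least 10% of either kind of nuclei (no Gm, Rik, ribosomal or mitochondrial genes), the 10 and 6 genes with the largest fasting differences among those with a gap wider than the fed range, and up to 4 such genes per list. Some genes that meet this rule are not reported here. The statistics were tested on simulated counts. Positions come from the GRCm38 annotation given with the data.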

Additional observations from a re-analysis of the deposited data

Results flagged for a closer look

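Of 58 groups of 4 fed libraries that were checked for a library far from the other 3, 7 (12.1%) had one, where chance gives about 1 in 20 by the rule's nominal rate. That rate was not measured here, and levels from few UMIs need not follow it. Fed library 2, with 4 *Ppp1r17* nuclei and 13978 UMIs, was the distant one for *Prox1os* (71.5 CPM, the value of 1 UMI there), *Npas2* (215 CPM), *Ebf1* (644 CPM), *Lepr* (215 CPM) and *Qdpr* (215 CPM). For *Coro6* it was fed library 3 (17 CPM, the other fed libraries at 0), and for *Glp1r* fed library 1 (43.2 CPM, from 2 UMIs).

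The fasting difference of the *Ppp1r17* nuclei differed from that of other nuclei in 13 tests (edgeR interaction of kind with fasting, adjusted p under 0.05). *Pmch* differed by 4.20 from other GABAergic nuclei, by 4.77 from *Lef1* nuclei and by 5.09 from *Agrp* nuclei. From *Agrp* nuclei alone, *Fat3* differed by 3.38, *Il1rapl2* by 3.26, *Robo1* by 2.80, *Dcc* by 1.95, *Nrg1* by 1.94, *Lrp1b* by 1.92, *Rbfox1* by 1.89 and *Cntn5* by 1.74, and in the other direction *Vgf* by -4.67 and *Sorcs1* by -2.53. With each of the 6 libraries left out in turn, every one of these calls was lost at least 3 times, and *Rbfox1*, *Lrp1b*, *Cntn5* and *Dcc* lost it with any library left out.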

How the results depend on the processing

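Alternatives that leave out pairs of libraries, drop the GABAergic requirement or refit the interactions were chosen after seeing the data. Against other GABAergic nuclei, 131 calls became 197 with fed libraries 1 and 4 as a pool, 6 by DESeq2, 1 with at least 3 *Ppp1r17* UMIs and 17 without fed libraries 3 and 4, and ranged from 32 to 126 with single libraries left out. For fasting, edgeR called 1065 and 972 genes under single poolings and 39 without a filter on low counts, against 0 under the least favourable pooling. The number of genes tested for fasting also changed (10858, 4591, 7746 and 1311 in the order that follows, against 4595). Genes above the fed libraries numbered 1490 (13.7%) with at least 1 *Ppp1r17* UMI, 1321 (28.8%) without fed libraries 1 and 2 and 1182 (15.3%) without the GABAergic requirement (418 to 1003, or 16.8% to 22.2% of 2116 to 4595 genes tested, with single libraries left out), against 11%, and genes below 1149 (10.6%), 1524 (33.2%) and 673 (8.69%) (84 to 655, or 3.78% to 14.4%), against 6.92%. Without fed libraries 3 and 4 they numbered 367 (28%) above and 194 (14.8%) below. Those with a wide gap numbered 207, 786 and 106 above, and 139 (10.6%) without fed libraries 3 and 4 (57 to 166, or 1.62% to 3.61%), against 0.653%, and 150 with at least 1 UMI, 1213 without fed libraries 1 and 2 and 84 (6.41%) without fed libraries 3 and 4 below (10 to 269, or 0.45% to 5.86%), against 1.39%. Interaction calls ranged from 0 to 6, 0 to 7 and 0 to 4 with single libraries left out, and were 0 by DESeq2 (21, 22 and 7 at an unadjusted p under 0.05 against other GABAergic, *Agrp* and *Lef1* nuclei). The fasted minus fed share of passing nuclei turned to 0.00822 points after thinning, 0.287 without the GABAergic requirement and 0.142 without fed libraries 3 and 4, and ranged from -0.121 to 0.0369 with single libraries left out. The share of GABAergic nuclei turned to -0.996 with at least 1 UMI and -0.118 without fed libraries 1 and 2. That of *Lepr* turned to -3.12 with at least 1 UMI, -1.10 after thinning and -3.82 without the GABAergic requirement (-11.9 to 17.8, lowest without fasted library 2). Single genes turned in sign 14 times: with at least 3 *Ppp1r17* UMIs *Hlf* (-1.37), *Ghrh* (-3.19), *Avp* (-0.92) and *Glp1r* (-8.09); with at least 1, *Tac2* (0.0073), *Unc13c* (0.29) and *Avp* (-0.0038); without fed libraries 3 and 4 *Cck* (-6.95), *Ghrh* (-1.27) and *Avp* (-0.55); *Avp* without fed library 4 (-0.46, in a range up to 1.6 with single libraries left out); and *Glp1r* by DESeq2 (-0.045), without fed library 1 (-0.43, in a range up to 0.99) and without fed libraries 1 and 2 (-0.47). Of the other values of single genes 380 kept direction and call, 195 lost the call and 4 gained it. The causes were not tested. With the replicate number as a block, fasting gave 0 calls (91 at an unadjusted p under 0.05), and the numbers pair nothing (correlations of same-numbered libraries -0.053 and 0.016). With at least 3 *Ppp1r17* UMIs fed library 1 held no nucleus. The fasted minus fed share was then -0.0236 points of passing nuclei and 0.035 points of GABAergic nuclei. The counts of genes outside the fed range and the shares of nuclei with *Lepr*, *Glp1r* or *Grp* were not run at this setting.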
